A study of Mus musculus with 2 samples.

Results

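Chondrocytes of the mouse temporomandibular joint (TMJ) are described here, taken from single-cell libraries of joints into which CFA, the adjuvant of Freund that inflames the joint, had been injected. A cell was chosen by 3 rules: at least 500 detected genes with under 10% mitochondrial transcripts, at least 5 raw transcript counts (UMIs, unique molecular identifiers) summed over Col2a1, Acan and Col9a1, and no UMI of Ptprc, the gene of the leukocyte antigen CD45. Of 4352 kept cells in the WT CFA library, 89 were members, and of 5757 kept cells in the Prox1 mutant CFA library, 69 were members, so the description rests on 158 of 10109 cells. The WT library came from C57BL/6 wild-type mice and the mutant library from C57BL/6 mice that carried 1 disrupted copy of Prox1 (Prox1+/-), the transcription factor that specifies lymphatic endothelium. The strain is spelled as in the sample labels, and the study's methods name C57BL/6J mice. Both groups received CFA, so no joint without CFA enters any comparison. The sources give the age as 8 to 10 weeks or as 2 months, and the study used female mice. The allele is present in the whole body, and the number of animals behind each library and the interval between CFA and harvest are not given in the sources used here. There was 1 library per group. No value below therefore carries a test between genotypes, all intervals are 95% and cover counting error only, and genotype cannot be told apart from dissection, dissociation or library preparation.

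Chondrocytes build the matrix of cartilage, in which fibrils of type II collagen (Col2a1) with types IX and XI hold aggregates of the proteoglycan aggrecan (Acan) on hyaluronan, tied by link protein (Hapln1). SOX9, with SOX5 and SOX6, drives these genes, and COMP crosslinks the collagen network. The mandibular condyle is covered by fibrocartilage, in which a fibrous surface rich in type I collagen overlies dividing cells, mature chondrocytes that secrete type II collagen and aggrecan, prehypertrophic cells that secrete Indian hedgehog (Ihh), and hypertrophic cells that secrete type X collagen (Col10a1) beside the bone.

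The promoters of Acan, the rule gene found in most members, and of Col10a1, a hypertrophic gene, are printed here. They were chosen because the SOX motif letters occur in the second window and not in the first. Col10a1 also had the highest ratio of summed WT counts between the classes described below. The sequences are the 250 bases before the annotated start in RefSeq on GRCm38.p6, plus strand, at chr7:79052976-79053225 for Acan and chr10:34389731-34389980 for Col10a1. Capitals mark a match to the SOX core letters ACAAAG or ACAATG on either strand.
Acan: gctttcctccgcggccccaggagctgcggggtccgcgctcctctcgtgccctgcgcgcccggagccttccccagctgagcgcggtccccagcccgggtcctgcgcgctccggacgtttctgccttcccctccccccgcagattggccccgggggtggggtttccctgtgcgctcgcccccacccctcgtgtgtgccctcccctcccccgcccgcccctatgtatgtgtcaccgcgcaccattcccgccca
Col10a1: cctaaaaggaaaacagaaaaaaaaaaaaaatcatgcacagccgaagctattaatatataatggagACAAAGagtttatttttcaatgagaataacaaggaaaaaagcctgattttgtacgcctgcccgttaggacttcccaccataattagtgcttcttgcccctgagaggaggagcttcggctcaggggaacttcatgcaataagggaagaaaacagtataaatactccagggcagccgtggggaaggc
The Acan window held 0 matches and the Col10a1 window held 1, whose first base lies at -185 from the start. Either motif occurred in 25.2% of the 32851 promoters in that table (ACAAAG in 16.5% and ACAATG in 10.7%), and in 2 of 16 promoters (12.5%) of the 12 matched genes among the 15 leading genes of the members, so the letters alone did not set these promoters apart. The gene bodies lie at chr7:79053483-79115099 on the plus strand (Acan), chr15:97975602-98004695 on the minus strand (Col2a1) and chr10:34389981-34397085 on the plus strand (Col10a1) in GENCODE M21 on GRCm38.

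The members were deeper than the kept cells at large and held less haemoglobin RNA. Depth was 1327, 20165 and 55520 UMIs (lowest, median and highest) in the WT members and 798, 16404 and 44177 in the mutant members, beside medians of 6997 and 4848 UMIs over all kept cells. The median member had 4698 detected genes in the WT library and 4426 in the mutant library. Haemoglobin transcripts (Hba-a1, Hba-a2, Hbb-bs and Hbb-bt) made up 0.0314% of the UMIs of the WT members and 0.326% of those of the mutant members, against 3.54% and 8.95% in the other kept cells. The share in the median member was 0.0177% and 0.0609%, so the mutant share was higher in the median member too. A total of 6 mutant members and 1 WT member were above 1%, and the 6 mutant members, of 2102 to 9730 UMIs, reached 6.31 to 23.1%. The libraries shared 10 cell barcodes, 4 of them in kept cells and 0 in members.

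**Figure D1:**
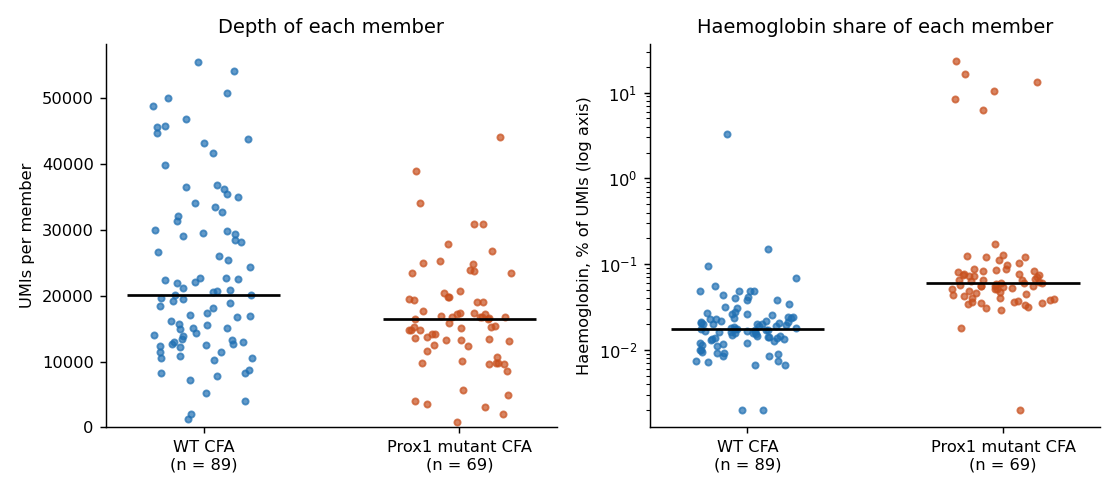
Depth (total UMIs, linear axis) and haemoglobin share (percent of a member's UMIs, log10 axis) of every member, 1 point per cell, for the WT (n = 89) and mutant (n = 69) libraries. Members without a haemoglobin UMI are drawn at 0.002%, and the mutant points sit higher in haemoglobin share, with medians of 0.0609% against 0.0177%.

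Prox1 itself was close to absent from the members, with 1 UMI in 1 WT member and 6 UMIs in 2 mutant members. Over the other kept cells it was 12.1 CPM (UMIs of the gene scaled to a total of 1000000) in the WT library and 5.81 CPM in the mutant library. In fibroblasts, taken as cells with at least 5 UMIs of Dcn, Lum and Pdgfra, no Ptprc UMI and under 2 UMIs of the rule genes, it was 32.1 CPM (n = 508 cells) and 13.1 CPM (n = 315 cells). The mutant library was thus lower outside the members, and within them the counts were too few to compare.

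The label was checked with 15 cartilage genes that the rule did not use, namely Sox9, Comp, Hapln1, Matn1, Matn3, Cnmd, Chad, Ucma, Snorc, Cytl1, Col9a2, Col9a3, Col11a1, Col11a2 and Epyc. The median member had a UMI of 4 of the 15 genes in each library, and 85.4% of WT and 84.1% of mutant members had 3 or more. The same share was 16.1% and 10.2% in fibroblasts, whose median depths were 12069 and 9416 UMIs. In neutrophils, which should lack these genes, it was 1.39% and 1.56% at median depths of 13626.5 and 4697 UMIs. Sox9 had a UMI in 80.9% of WT and 88.4% of mutant members, against 33.5% and 27.6% of fibroblasts and 1.59% and 3.20% of neutrophils. The members thus stood well above the free RNA level as a group. Cells near the threshold carried fewer of the genes: members with a rule sum of exactly 5 UMIs (12 WT and 8 mutant cells) had a median of 2.5 and 3, and the 8 WT and 15 mutant cells just outside, at a sum of 4, had a median of 2 in both libraries.

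Not every member carried the label. A set of 4 WT and 3 mutant members had none of the 15 genes, with 4 to 9 and 5 to 11 Acan UMIs but 159 to 283 and 78 to 486 UMIs of Acta2, the smooth muscle actin. A further 3 WT members had 2099 to 5969 UMIs of Bglap, the osteocalcin gene of bone-forming cells, together with 9 to 298 Col2a1 UMIs and no Acan UMI, and these 3 cells held 96.1% of the Bglap UMIs of all WT members. The Ptprc criterion had removed 14 WT and 24 mutant cells with a median of 4.5 and 4 of the 15 genes, so cells with the same matrix genes were also found among the cells left out.

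By their genes, the members fell into a class with type II collagen and a larger class without it. Col2a1 had no UMI in 49 of 89 WT and 58 of 69 mutant members. A further 5 WT and 5 mutant members had fewer than 5 UMIs, at most 4 and 2. Of these, 1 WT member and no mutant member had 3 or 4 UMIs, and another 4 and 1 members had 5 to 9. Only 11 mutant members had any Col2a1 UMI, so the gap below the high cells was less clear there. Members with at least 5 Col2a1 UMIs are called the Col2a1 class below and the rest the Acan class, a division drawn after the values were seen. In the WT Col2a1 class (n = 35) Col2a1 was 5, 298 and 2349 UMIs per member (lowest, median and highest). The 6 mutant members of that class held 1117, 174, 69, 57, 55 and 8 UMIs, so 1 cell carried 75.5% of the total. The 6 values all lay within the WT range, 5 of them below the WT median. Acan is a rule gene, and nearly every member of the Acan class had to reach the rule through it, so its presence there was fixed by the choice of cells. It was 0, 20 and 318 UMIs over all WT members and 4, 15 and 87 over all mutant members. It was higher in the Col2a1 class, at 0, 78 and 318 UMIs against 2, 10 and 66 in the WT Acan class, and at medians of 49.5 against 14 in the mutant library.

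**Figure D2:**
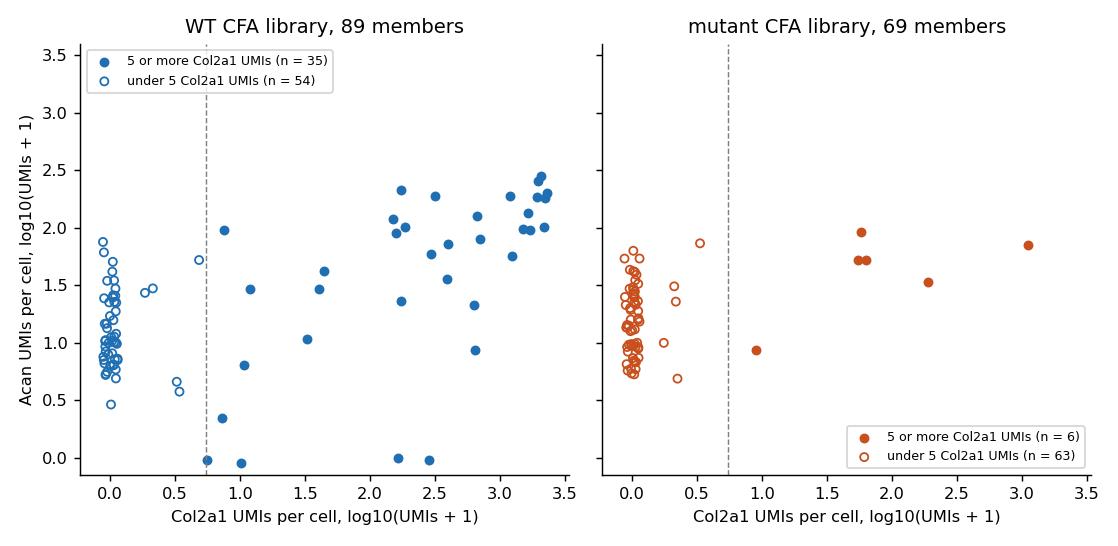
Col2a1 against Acan UMIs of every member, as log10(UMIs + 1) with a small jitter, in the WT (n = 89) and mutant (n = 69) libraries. The dashed line is the class limit of 5 Col2a1 UMIs, with 35 WT and 6 mutant members above it, the others along the floor, and median Acan counts above and below it of 78 and 10 UMIs in WT and 49.5 and 14 in mutant.

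Against the other kept cells of the same library, the members' profile was led by cartilage matrix genes, as the choice of cells would make it, and the numbers are a description. At least 4-fold higher in both libraries were 281 of 7109 genes (3.95%). Acan was 1942 CPM in the WT members against 17.3 in the other cells, and 1295 against 11.5 in the mutant library. Col2a1 was 12624 against 84.9 CPM and 1292 against 13.0 CPM. Of the genes the rule did not use, Snorc, a small chondrocyte membrane proteoglycan, was 2402 against 21.0 and 316 against 3.82 CPM. Hapln1 was 1843 against 19.2 and 436 against 6.51 CPM. Chondroadherin (Chad), a leucine-rich matrix protein, was 784 against 8.47 and 342 against 7.82 CPM. Panx3, a channel of prehypertrophic chondrocytes and osteoblasts, was 299 against 3.11 and 29.6 against 1.18 CPM. The other leading genes were the fibrillar collagen gene Col27a1, the transmembrane collagen gene Col13a1, tenascin W (Tnn), the metalloprotease gene Adamts18, the crosslinking enzyme gene Loxl4, and Meltf, Gramd2, Pla2g5 and Fzd9.

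The gene lists are counted here without the rule genes. All 8 of 8 other cartilage collagen genes and 8 of 10 other proteoglycan and matrix protein genes compared were at least 4-fold higher in both libraries, as were 8 of 11 fibrocartilage genes, 5 of 6 prehypertrophic genes, 3 of 5 hypertrophic genes, 9 of 17 growth factor signalling genes and 6 of 15 collagen folding genes. Chondrogenic transcription factors did so for 3 of 12, and superficial zone genes for 0 of 8. Prg4, the lubricin gene of the superficial zone, had a UMI in 7 of 89 WT and 13 of 69 mutant members (7.87% and 18.8%). Of the transcription factors, Nkx3-2 had no UMI in a member of either library. Among the markers of other cell types, no member of either library had a UMI of Cd3e, Cd3d or Icos (T cell), Sox10 (Schwann cell), Acta1 or Ckm (muscle), Plin1 (adipocyte), or Krt5, Krt14 or Krt18 (epithelium). Other genes of these lists were detected in at least 1 library, and their summed levels are given at the end.

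The WT Col2a1 class was the deeper class, with a median of 32169 UMIs against 16421 in the Acan class. Of 5632 genes compared, 2.36% were at least 4-fold higher in it and 3.75% at least 4-fold lower. The genes named here were picked from those higher in it. Some were also common in the Acan class: Pth1r had a UMI in 53 of its 54 members, Hapln1 in 45 and Comp in 32. Col10a1 was 1711 CPM (1635 to 1790) against 2.07 CPM (0.251 to 7.48). Snorc was 4488 against 18.6 CPM, Comp 6208 against 664 CPM and Hapln1 3088 against 421 CPM. Ihh, the signal of prehypertrophic cells, was 255 CPM (226 to 286) in 13 members and was not detected in the 54 members of the Acan class, which allows up to 3.82 CPM. Matn3, a cartilage matrix protein gene, was 309 CPM against none detected. Pth1r, the receptor for the parathyroid hormone-related signal that holds back hypertrophy, was 1730 against 295 CPM. Ibsp, the bone sialoprotein gene of hypertrophic chondrocytes and osteoblasts, was 39503 against 701 CPM. Sox9 was nearer between the classes, at 474 CPM (434 to 516) and 302 CPM (269 to 339). The sparse counts of the mutant Col2a1 class (6 cells) gave the same order for Snorc (2000 against 94.4 CPM) and Comp (3431 against 637 CPM). Col10a1 was found in 1 of the 6 cells (217 against 11.8 CPM), and Bglap had the opposite order (22.5 against 124 CPM, where the WT classes had 9910 and 65.2 CPM). Both Bglap orders rested on few cells. The 3 Bglap-rich WT cells held 96.1% of the Bglap UMIs of all WT members. No cell of the mutant Col2a1 class had more than 1 Bglap UMI, and 1 cell held 62.7% of those of the mutant Acan class.

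Within the WT Col2a1 class a further division could be described. The 9 members with at least 5 Ihh UMIs had 5095 CPM of Col10a1, against 210.5 CPM in the other 26, and 78730 against 22108 CPM of Ibsp. Not every gene of these stages had that order: Panx3 was 843 against 408 CPM and Pth1r 2666 against 1315 CPM, but Spp1, the osteopontin gene, was 961 against 2739 CPM and the collagenase gene Mmp13 142 against 552 CPM. The Mmp13 UMIs lay in only 1 of the 9 and 5 of the 26 members. The 9 members had more Acan (4078 against 2316 CPM) and Snorc (8542 against 2691 CPM), and less Col1a1, the type I collagen gene (15153 against 43825 CPM), Postn (73.7 against 1390 CPM) and Tnn (67.8 against 484 CPM). Bglap was low in them, at 109 CPM against 14256 CPM in the others, most of which lay in the 3 cells named above. The Ihh members were also deeper, with a median of 45635 against 30661.5 UMIs. Foxa2, a transcription factor gene of hypertrophic chondrocytes, had a UMI in 12 WT members of the Col2a1 class (55.3 CPM) and was not detected in the WT Acan class. The mutant library held 1 Ihh member, with 19 Ihh, 29 Col10a1, 1120 Ibsp and no Sox9 UMIs.

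**Figure D3:**
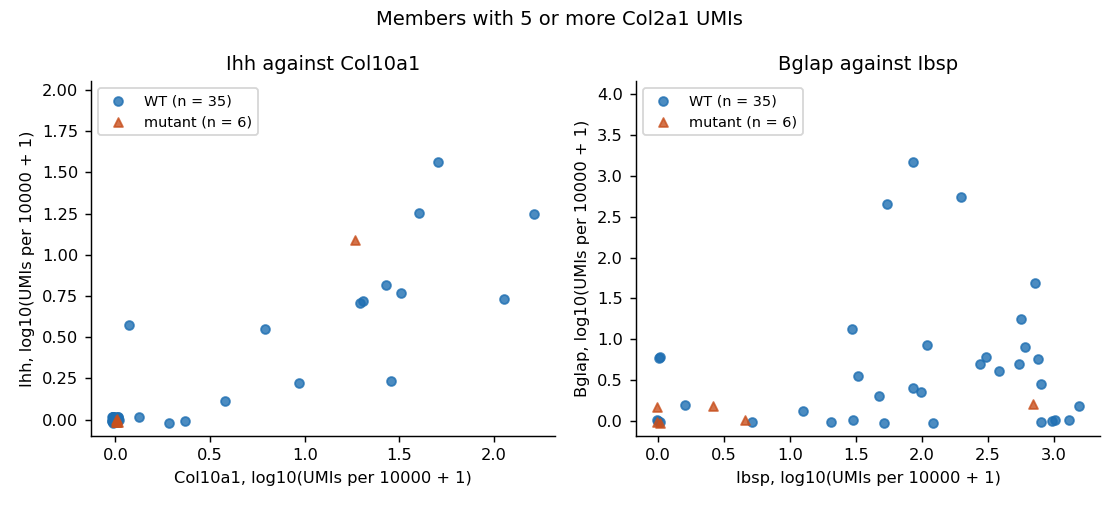
Members of the Col2a1 class (35 WT and 6 mutant cells), with Ihh (vertical) against Col10a1 (horizontal) on the left and Bglap against Ibsp on the right, each as log10(UMIs per 10000 UMIs of the cell + 1). Of the 9 WT cells with 5 or more Ihh UMIs 8 also have 27 or more Col10a1 UMIs, 3 WT cells stand apart in Bglap, and 1 mutant cell lies among the cells with Ihh.

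The Acan class held several genes of fibrous matrix. Genes among its leading ones in both libraries, beside Acan (897 CPM in WT and 1176 CPM in mutant members), were Tnn (2067 and 1624 CPM), the periostin gene Postn of fibrous tissue and periosteum (5414 and 3284 CPM), the fibril-associated collagen gene Col12a1 (2179 and 1257 CPM), fibromodulin (Fmod, 2517 and 2169 CPM), Ecrg4 (1203 and 1057 CPM), Ndufa4l2 (1170 and 748 CPM), Pdzrn4 (1318 and 1327 CPM), Sema3d (720 and 888 CPM), the collagen genes Col16a1 (868 and 734 CPM) and Col13a1 (245 and 152 CPM), Angptl2 (774 and 1389 CPM), the calcium-sensing receptor gene Casr (76.6 and 78.7 CPM), the fibrillar collagen gene Col24a1 (589 and 705 CPM) and Adamts18 (378 and 679 CPM). Runx2, the osteoblast and hypertrophy factor, was 1162 CPM (1095 to 1232) in the WT Acan class and 872 CPM (818 to 929) in the WT Col2a1 class. In those of the mutant library it was 1592 CPM (1516 to 1672) and 1731 CPM (1515 to 1969), with overlapping intervals. In the mutant Col2a1 class 1 of 6 cells held 40.7% of the Runx2 UMIs. The Runx2 medians per member were 15 and 24 UMIs in WT and 17 and 32.5 in mutant, higher in the Col2a1 class of both libraries. These counts are not scaled to depth, and that class was deeper. Median depths of the Acan and Col2a1 classes were 16421 and 32169 UMIs in WT, and 15244 and 19863.5 in mutant. Tnn and Postn were lower in the WT Col2a1 class, at 356 and 986 CPM, but not every fibrous gene was: Col1a1 was 35016 CPM there against 20151 CPM in the Acan class, and 25169 CPM without the 3 Bglap-rich cells, which held 36.7% of it. The fibrocartilage and fibrous tissue list summed to 70500 against 59541 CPM, but to 53343 CPM without those 3 cells, which turned the order. Acta2 was 1244 CPM in the WT Acan class and 17.2 CPM in the Col2a1 class, but 80.2% of it came from the 4 members with none of the 15 cartilage genes, and it was 278 CPM without them. The class kept cartilage transcripts as well: Hapln1 had a UMI in 45 of 54 WT and 52 of 63 mutant members, and Sox9 in 42 and 56.

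**Figure D4:**
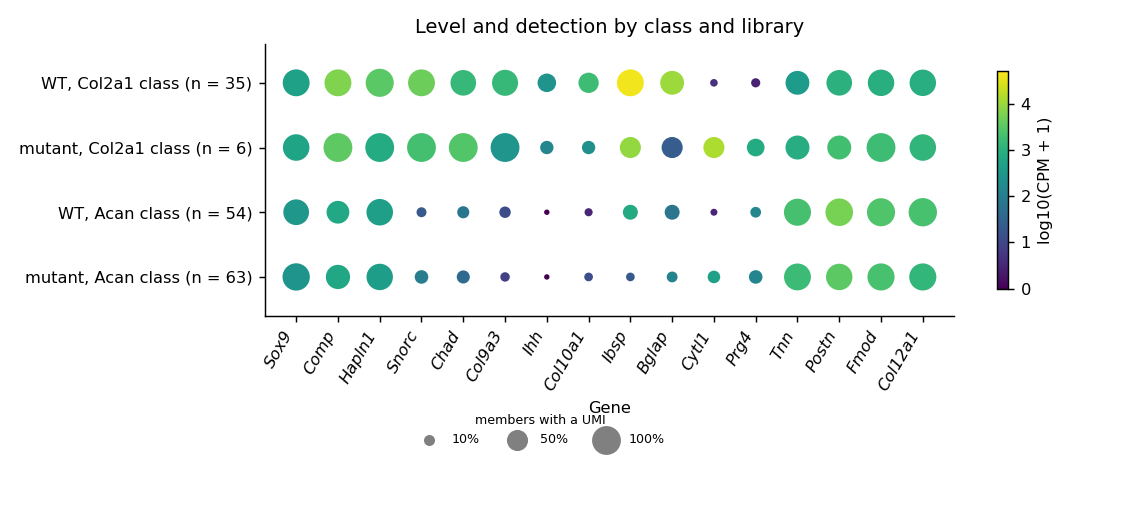
Level and detection of 16 genes in the Col2a1 and Acan classes of each library, with point area for the percentage of members with a UMI and colour for log10(CPM + 1). Snorc, Chad, Col9a3 and Ibsp are higher in the Col2a1 class of both libraries (for mutant Ibsp 98.7% of the UMIs are in 1 of 6 cells), while Sox9, Comp, Hapln1 and Fmod are found in most members of both classes.

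The mutant library held fewer members with type II collagen and about as many of the Acan class. Members made up 2.05% (1.65 to 2.51) of the kept WT cells and 1.20% (0.934 to 1.51) of the kept mutant cells, a difference of -0.846 percentage points (-1.37 to -0.353). The Col2a1 class was 35 of 4352 cells (0.804%) against 6 of 5757 (0.104%), which is 7.72-fold lower in the mutant library, with a difference of -0.700 points (-1.02 to -0.443). The Acan class was 54 cells (1.24%) against 63 cells (1.09%), with a difference of -0.146 points (-0.590 to 0.272), an interval that includes 0. The mutant library held more haemoglobin RNA, and the shares depend on the cells they are taken of. With cells of 5% haemoglobin or more left out, the Col2a1 class was 4.93-fold lower (0.867% against 0.176%), and the difference in all members shrank to -0.360 points (-1.0 to 0.293). Among members and fibroblasts together, the Col2a1 class was 5.86% against 1.56% (3.75-fold lower), while the Acan class was 9.05% against 16.4%, higher in the mutant library by 7.36 points (3.12 to 11.9). Among the members themselves the Col2a1 class was 39.3% (29.1 to 50.3) in WT and 8.70% (3.26 to 18.0) in mutant, and at members of 10000 UMIs or more it was 40% against 10.7%. The lower Col2a1 class was thus seen over each of these totals, and the direction for the Acan class was not. The direction for all members also turned: among members and fibroblasts they were 89 of 597 WT and 69 of 384 mutant cells, a higher mutant share. How many of the joint's chondrocytes the digestion released was not tested.

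The UMIs of all members were then summed in each library and compared. Of 7376 genes compared, 572 (7.75%) were at least 2-fold higher and 306 (4.15%) at least 2-fold lower in the mutant members, and the median gene lay 0.21 higher on the log2 scale, against which the values below should be read. The split of 65.1% higher among the genes past 2-fold became 50.9% when each member was thinned to 2000 UMIs and 57.3% when each member counted equally. Comp was 0, 8 and 635 UMIs per WT member and 0, 6 and 170 per mutant member. Summed, it was 3621 CPM against 962 CPM, log2 ratio -1.91 (-2.01 to -1.82), although the medians per member were close and the ranges overlapped. Sox9 was 0, 4 and 62 UMIs per WT member and 0, 4 and 32 per mutant member, 394 CPM against 305 CPM and log2 -0.37 (-0.55 to -0.19). Runx2 was 0, 18 and 110 against 0, 17 and 129 UMIs, 1008 CPM against 1608 CPM and log2 0.67 (0.58 to 0.77). Col1a1 was 0, 389 and 8403 against 0, 117 and 853 UMIs, 28078 CPM against 10483 CPM and log2 -1.42 (-1.45 to -1.39), with overlapping ranges and a lower mutant median. Of the rule genes, given without weight, Col2a1 was 12624 and 1292 CPM, Acan 1942 and 1295 CPM, and Col9a1 887 and 50.4 CPM.

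The lowest ratios over all members were mostly genes of the Col2a1 class. Bglap was lower by -5.57 (-5.83 to -5.32) on the log2 scale, and only by -0.97 without the 3 Bglap-rich WT members. Col10a1 was 913 against 35.6 CPM, with a log2 ratio of -4.68 (-5.16 to -4.23), and had a UMI in 18 WT and 4 mutant members. Col9a3, a chain of collagen IX, had a ratio of -4.32 (-4.78 to -3.89). Ibsp had -4.41 (-4.50 to -4.33), with 97.1% of the mutant UMIs in 1 member. Foxa2 (61 against 1 UMI) had -5.08 (-10.41 to -2.55), Fam89a (62 against 1 UMI) -5.11 (-10.43 to -2.57) and Spock2 (105 against 2 UMIs) -4.87 (-7.93 to -2.98), the last with 82.9% of its WT UMIs in 1 member. Fxyd2, a subunit of the sodium pump, had 100 WT UMIs and none in the mutant members. Its ratio was -4.21 with the 0 set to a floor of 3 UMIs, and the upper interval limit was -3.89. Fabp4, a fatty acid carrier of adipocytes and endothelium, had -4.16 (-5.13 to -3.34), and -2.28 without the members that lacked all 15 cartilage genes. Rpl29, a ribosomal protein gene, had the lowest ratio, -5.74 (-6.56 to -5.04). It was also low in cells outside the members, at -4.61 (-4.92 to -4.31) in fibroblasts and -5.63 in neutrophils. The next lowest of 75 ribosomal protein genes in the members was -1.22.

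The highest ratios over all members were led by Cytl1, a secreted protein gene of cartilage. It had 6 UMIs in 2 WT members and 2282 in 12 mutant members, 2.90 against 1984 CPM and log2 9.42 (8.29 to 10.87), with most of the UMIs in the cells described below, and 7.94 with the cells of the highest doublet scores left out. Ucma, a secreted gene of resting chondrocytes, had 4.00 (3.31 to 4.77), from 8 WT and 5 mutant members. All 169 of its mutant UMIs lay in the Cytl1 cells described below, 50.3% of them in 1 cell. The other 59 mutant members had none, against 19 UMIs in the WT members, so without the Cytl1 cells the direction turned. Col14a1, a fibril-associated collagen gene of fibrous tissue, had 4.35 (3.67 to 5.11), and the transcription factor gene Foxp2 had 4.03 (3.09 to 5.14). Frmd5, Phactr1 and G0s2 had 4.58, 3.94 and 3.92. For G0s2, 92 of the 101 mutant UMIs lay in the Cytl1 cells described below, and 1 member held 63.4%. The other 59 mutant members had 8.72 CPM of G0s2, against 5.80 CPM in the WT members. Few members held some of these genes: Col14a1 had a UMI in 6 WT and 9 mutant members, Foxp2 in 4 and 8, and Frmd5 in 3 and 8. In fibroblasts the ratios of Col14a1, Foxp2 and Frmd5 were 0.04, -0.57 and 0.04. Their WT and mutant fibroblast levels were 797 and 818 CPM, 243 and 164 CPM, and 62.3 and 64.0 CPM. In the mutant members Col14a1 and Foxp2 were 187 and 79.1 CPM. Dbp, a transcription factor of the circadian clock's output, had 4.03 (3.39 to 4.74) and was also higher in fibroblasts, at 2.71. The remaining 2 of the 10 genes were higher outside the members as well. Hba-a2 had 4.25 in the members and 3.99 in fibroblasts. Bpifb1, a secreted epithelial gene, had no UMI in WT members and 51 in mutant members. Its ratio was 4.94 with the 0 set to the floor of 3 UMIs, and the lower interval limit was 4.58. In fibroblasts it had no UMI in WT and 405 UMIs in mutant cells.

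The lists over all members differed in their counts past 2-fold. Of 8 cartilage collagen genes that the rule did not use, 4 were at least 2-fold lower and none higher (median log2 -1.56), of 7 hypertrophic genes 4 were lower and none higher (-1.99), of 7 osteoblast and osteocyte genes 5 were lower and none higher (-3.76), or 3 and none (-0.97) without the 3 Bglap-rich WT members, and of 7 prehypertrophic genes 3 were lower and none higher (-0.57). Ihh was 136 CPM in 13 WT members and 16.5 CPM in 1 mutant member. Proteoglycan and matrix protein genes were mixed, with 4 higher and 7 lower of 15 without Acan (median -0.94), or 2 and 10 (-2.12) without the Cytl1 cells: Hapln1 had -2.08 (-2.22 to -1.95) and Snorc -2.93 (-3.09 to -2.77), while Fmod had 0.34 (0.27 to 0.42). Superficial zone genes were higher for 4 of 8 and lower for none (median 1.26), and 4 higher and 1 lower (0.95) without the Cytl1 cells described below. Prg4 was 69.6 CPM in 7 WT against 206 CPM in 13 mutant members, but 162 of its mutant UMIs lay in 5 Cytl1 cells, and the other 59 mutant members had 72.7 CPM. Genes of collagen folding (0 higher and 0 lower of 15), matrix degradation (0 and 0 of 13), glycosaminoglycan synthesis (0 and 1 of 13), chondrogenic transcription factors (0 and 1 of 13) and hypoxia and glycolysis (1 and 1 of 14) had few genes past 2-fold, beside 7.75% higher and 4.15% lower of all genes. Inflammatory response genes had 1 and 0 of 7 (median 0.13), or 0 and 0 (-0.17) without the Cytl1 cells. At a minimum of 20 UMIs they had 5 and 0 of 13. The counts past 2-fold among all 9962 genes compared at that minimum are given in the closing section. The shares over all genes given here are for the main minimum of 50 UMIs. Fibrocartilage genes had 2 and 2 of 11, and growth factor signalling genes 2 and 5 of 19.

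Within the Acan class alone the libraries were closer. Of 5969 genes, 216 (3.62%) were at least 2-fold higher and 125 (2.09%) at least 2-fold lower in the mutant library, with a median log2 ratio of 0.06. The higher share of the genes past 2-fold was 63.3%, and 54.8% when each member counted equally. Comp had -0.06 (-0.22 to 0.10), Hapln1 -0.10 (-0.30 to 0.10), Sox9 -0.15 (-0.39 to 0.09), Fmod -0.21 (-0.30 to -0.13) and Tnn -0.35 (-0.44 to -0.25). Each of these was less than 2-fold, the per-member ranges overlapped, and when each member counted equally Comp and Sox9 had 0.40 and 0.12 in place of their negative values. Runx2 had 0.45 (0.34 to 0.57), with medians of 15 and 17 UMIs per member. Col1a1 was 20151 against 10352 CPM, log2 -0.96 (-1.0 to -0.93), and was 0, 243.5 and 1915 UMIs per WT member and 0, 117 and 853 per mutant member. Postn had -0.72 (-0.78 to -0.66). In fibroblasts Col1a1 and Postn were lower as well, at -0.45 and -1.17.

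A few matrix and growth factor genes of the Acan class passed 2-fold. Col11a1, the collagen XI chain, was 817 against 330 CPM, log2 -1.31 (-1.50 to -1.12), with 0, 4.5 and 127 UMIs per WT member and 0, 1 and 79 per mutant member, and -0.15 in fibroblasts. Lox, the lysyl oxidase gene that crosslinks collagen and elastin, had -1.75 (-2.15 to -1.37). Elastin itself (Eln) had -2.77 (-3.90 to -1.80), but -4.03 without the Cytl1 cells described below and -1.43 without the Acta2-rich members that lacked all 15 cartilage genes. Of 5 elastic cartilage genes 3 were lower and none higher, with or without those members, beside 2.09% lower and 3.62% higher of all genes in the class. For 2 of them few cells counted: Eln had a UMI in 10 WT and 5 mutant members, and 1 WT member held 27 of the 40 WT Fbln5 UMIs. Loxl1, found in 33 WT and 39 mutant members, had 101 WT and 156 mutant UMIs. Igfbp5, which binds insulin-like growth factors, was 337 against 2220 CPM, log2 2.72 (2.55 to 2.89), against 0.06 in fibroblasts. Its sum rested on few cells, with 0, 1 and 43 UMIs per WT member and 0, 2 and 581 per mutant member. Cilp, the cartilage intermediate layer protein gene, had 1.61 (1.24 to 2.0), against -0.02 in fibroblasts. Timp3, an inhibitor of matrix proteases, was 410 against 1085 CPM, log2 1.40 (1.24 to 1.57), against -0.36 in fibroblasts. Clu, a secreted chaperone gene listed with the superficial zone, had 1.99 (1.57 to 2.42) and 1.31 without the Cytl1 cells described below, Ugdh, which makes the sugar nucleotide for glycosaminoglycans, 1.32 (0.95 to 1.71), and Vegfa 1.10 (0.54 to 1.67). Alpl and Thbs4 were lower, at -1.13 (-1.47 to -0.81) and -1.04 (-1.40 to -0.69). In fibroblasts Lox (-0.50), Eln (-1.30), Clu (0.67), Vegfa (0.64), Alpl (-0.69) and Thbs4 (-0.20) had the same direction as in the Acan class. Ugdh had -0.11 there, and Mki67 and Top2a had 0.91 and 0.94, the opposite direction. The cycle genes Mki67 and Top2a had -2.05 (-2.97 to -1.21) and -2.33 (-3.13 to -1.61) in the Acan class. These came from few cells, since 2 WT and 3 mutant members of the class had 5 or more UMIs of the proliferation list. Without the members that lacked all 15 cartilage genes the ratios were -0.58 and -1.26.

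**Figure D5:**
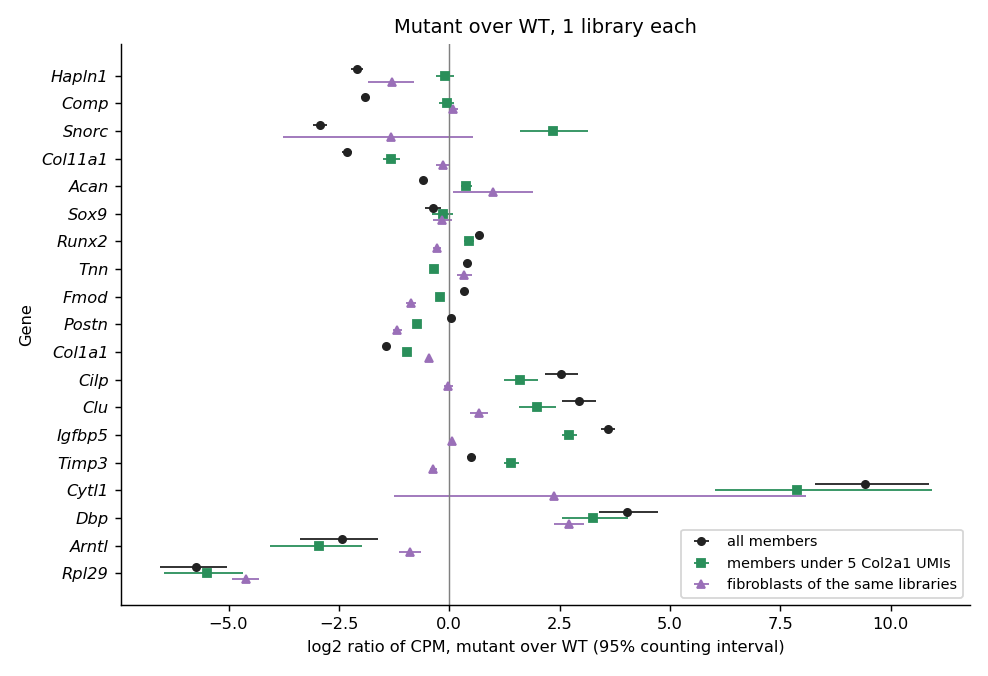
Log2 ratio of mutant over WT for 19 genes with 95% counting intervals, in all members (89 and 69 cells), in the Acan class (54 and 63 cells) and in fibroblasts (508 and 315 cells). Comp and Hapln1 lie near -2 in all members and near 0 in the Acan class, whereas Igfbp5 lies above 2 in both and near 0 in fibroblasts.

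The genes at the ends of the Acan class ratio were Cytl1 (2 against 498 UMIs, 7.89, 6.03 to 10.94), Hba-a2 (3.73), Col14a1 (3.50), G0s2 (3.32, with 76.2% of the mutant UMIs in 1 member), Dbp (3.26), Tnxb (3.16), Foxp2 (3.11), Hbb-bt (3.05), Eml6 (2.96) and Meltf (2.90) on the higher side. Fabp4 (-5.53), Rpl29 (-5.49), Ibsp (-5.23), Sphkap (-3.48), Stmn1 (-3.24), Fabp5 (-3.14), Sept4 (-3.01), Arntl (-2.94), Prc1 (-2.80) and Eln (-2.77) lay on the lower side. For Fabp5, 89.3% of the WT UMIs came from 1 member, and without the deepest member of each library the ratio was 0.04. Without the members that lacked all 15 cartilage genes, Fabp4 had -3.28 and Prc1 -1.31. For Ibsp, 1 WT member held 65.9% of the WT UMIs and 1 mutant member 89.5% of the mutant UMIs, and for Tnxb and Meltf 1 WT member held 85.7% of 14 and of 7 WT UMIs. A single WT member held 65.2% of the Prc1 and 63.7% of the Stmn1 UMIs. Among the lists, the 6 compared cartilage collagen genes had 1 lower and none higher (median 0.15), the 9 proteoglycan genes other than Acan 3 higher and none lower (0.21), the 11 transcription factors and 11 fibrocartilage genes none in either direction (0.20 and -0.20), and the 5 hypertrophic genes 1 higher and 2 lower (0.39). The proteoglycan count rested on the Cytl1 cells described below: without them, and with Acan counted, 1 was higher and 1 lower of 8 (0.02). Inflammatory response genes (6), immediate early and heat shock genes (11), prehypertrophic genes (5) and collagen folding genes (15) also had none past 2-fold in either direction.

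A set of 10 mutant members had at least 5 Cytl1 UMIs, and no WT member did. These cells were 14.5% (7.17 to 25.0) of the mutant members, while 0 of 89 allows at most 4.06% of the WT members (exact Clopper-Pearson). Cytl1 was 12, 62.5 and 1428 UMIs per cell, with 62.7% of the total in 1 cell. Scrublet's automatic threshold marked no cell, but 2 of the 10 cells, the cell of 1428 UMIs among them, were among the highest doublet scores taken at an assumed rate, and these 2 held 1500 of the 2278 Cytl1 UMIs. Of the 10 cells, 3 were of the Col2a1 class. Beside Cytl1 (19216 CPM against 3.88 in the other 59 mutant members), they had more Ucma (1426 CPM, in 5 cells, against none detected), Mia, a secreted cartilage protein gene (616 CPM against none detected), Mgp, an inhibitor of matrix calcification (9507 against 640 CPM, in 7 cells, 1 of which held 56.2% of the UMIs), Snorc (1847 against 140 CPM), Chad (1755 against 179 CPM), Erg, a transcription factor gene of articular chondrocytes and endothelium (346 against 8.72 CPM), and Clu (1257 against 144 CPM). They had less Tnn (186 against 1691 CPM), Postn (321 against 3441 CPM) and Col1a1 (3205 against 11319 CPM). They were shallower, with a median of 9384.5 UMIs. Of the 10 cells, 4 were rich in haemoglobin (8.51, 13.4, 16.6 and 23.1% of 2102 to 5620 UMIs), and the other 6 held 0.128% or less. Among all kept cells, at least 5 Cytl1 UMIs were found in 14 WT and 34 mutant cells. All 14 WT cells had a UMI of the endothelial gene Pecam1 and none of Snorc, whereas 19 of the 34 mutant cells had a Snorc UMI and 9 a Pecam1 UMI. The Cytl1 cells were picked after their values were seen, and with 1 library per group their absence from WT members cannot be told apart from a difference in the tissue sampled.

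Transcripts of other cell types differed between the libraries within the members. The 4 haemoglobin genes summed to 314 CPM in WT and 3265 CPM in mutant members, and all 4 were at least 2-fold higher. Their median log2 ratio was 3.38, but 2.34 without the Cytl1 cells and 1.64 among members of 20 or more rule UMIs, with all 4 still higher. The 7 neutrophil genes, with S100a9 the most abundant, summed to 93.7 and 372 CPM, and 3 of the 4 compared were higher. The 6 erythroid genes summed to 23.2 and 85.2 CPM, led by Bpgm. Macrophage genes, led by Lyz2, summed to 92.7 and 132 CPM, B cell genes to 29.5 and 13.0 CPM, T cell genes to 0 and 4.35 CPM, Schwann genes to 16.4 and 17.4 CPM, muscle genes to 4.35 and 8.69 CPM, and epithelial genes to 7.73 and 68.7 CPM, of which Bpifb1 was none in WT and 44.3 CPM in mutant members. Endothelial genes, led by Flt1, summed to 236 and 93.9 CPM, adipocyte genes, led by Car3, to 129 and 20.9 CPM, and mural genes, led by Acta2, to 1563 and 1824 CPM (3323 and 2062 CPM in the Acan class). Fibroblast list genes, led by Col3a1, summed to 8530 and 11535 CPM, with 1 of 6 compared genes higher and none lower. In all, 12 WT and 6 mutant members had 5 or more UMIs of an endothelial, Schwann, muscle or adipocyte list or 50 or more of the mural list, and without them the share of members differed by -0.675 points. The part of these transcripts in the gene ratios was not tested.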

How the data were processed

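The measurements are droplet single-cell RNA libraries of CFA-injected TMJs, 1 WT and 1 Prox1 mutant. The sources differ on the 3' kit version and on the digestion enzymes, so neither is given. The raw UMI counts of 32285 genes deposited by the authors had been made with Cell Ranger 7.0.1 on GRCm38/mm10, and are not divided by gene length. The libraries held 5709 and 7846 barcodes with 53517206 and 62446987 UMIs. Kept cells had at least 500 genes and under 10% mitochondrial UMIs. Members and gene lists were chosen with earlier results of these data known. UMIs were summed over members and given as CPM with exact Poisson intervals, shares with exact Clopper-Pearson intervals, differences of shares with Newcombe intervals, and ratios with Clopper-Pearson intervals of the split of UMIs (95%). Ratios between libraries used genes with at least 50 UMIs over both libraries and a UMI in at least 10 members, and the profile used genes with at least 20 UMIs and 5 members in each library. A gene at 0 was set to a floor of 3 UMIs. For doublets, Scrublet (scanpy 1.11.5) marked 0 cells by its automatic threshold, so the highest scoring 244 and 476 barcodes were taken instead, 5 and 4 of them members, which were left out only in an alternative. Genes named are the label genes, the 15 leading profile genes, the 10 highest and 10 lowest ratios, and the 4 most abundant or first genes of a list. Others, and the classes, were chosen after their values were seen. Python 3.11.15, numpy 2.4.6, scipy 1.17.1, pandas 2.3.3 and matplotlib 3.10.9 were used, and the scripts were tested on simulated data.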

Additional observations from a re-analysis of the deposited data

How the results depend on the processing

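The share of members in kept cells was lower in the mutant library under each definition of a member tried. The difference was -0.195 points with 2000 UMIs per cell and a threshold of 2 UMIs, and -0.0719 points for at least 5 Acan with under 5 Col2a1 UMIs. The intervals of both include 0, as does that with cells of 5% haemoglobin or more left out (-0.360 points, -1.0 to 0.293). Over some smaller totals the mutant share was higher. Among members and fibroblasts, members were 89 of 597 WT and 69 of 384 mutant cells. Among kept cells without a Ptprc UMI and under 5% haemoglobin they were 89 of 2608 and 63 of 1589. At 20 or more rule UMIs the median member had 9 of the 15 cartilage genes in WT and 4 in mutant. Counts of genes past 2-fold depended on the minimum count. Over all members, the counts higher and lower were 57 and 55 at 2000 UMIs per cell, 990 and 493 at a minimum of 20 UMIs, 179 and 119 at a minimum of 200, 216 and 125 with under 5 Col2a1 UMIs, and 196 and 141 with under 5 Cytl1 UMIs as well. Within the Acan class they were 33 and 20 at 2000 UMIs per cell, 472 and 301 at a minimum of 20 UMIs, 54 and 27 at a minimum of 200, and 189 and 83 among members of 20 or more rule UMIs. Fabp5 in the Acan class turned from lower to 0.036 without the deepest members and to 0.053 without the members that lacked the 15 genes. Detection fell with depth: at 2000 UMIs Ihh was found in 7.95% of WT members and Eln in 6.82% of WT and 2.94% of mutant members. At 1000 UMIs the shares were 3.37% for Ihh and 3.37% for Eln in WT, 1.47% for Eln in mutant, 2.25% and 7.35% for Prg4 in WT and mutant, and 91.0% for Col1a1 in WT. Of 414 values of named genes under the alternatives, 325 stayed within the counting interval, 87 moved beyond it and 2 reversed, and 408 in all kept their direction. No paired analysis was possible because each group holds 1 library. With 6 mutant cells of the Col2a1 class, levels within it rest on few cells.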

Other observations

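Some genes of the circadian clock differed between the libraries within the members. Of 15 such genes, chosen after values were seen, 13 passed the minimum of 50 UMIs in the members (not Hlf and Ciart), and 8 were at least 2-fold higher in the mutant members, 2 at least 2-fold lower and 3 in between (Clock 0.08, Per1 0.34 and Cry1 0.31), beside 7.75% higher and 4.15% lower of all genes compared. In the Acan class the counts were 5, 2 and 6, beside 3.62% and 2.09%. Outside the members they were 4, 1 and 9 in fibroblasts, 4, 1 and 9 in neutrophils, and 2, 1 and 12 in the other kept cells. No share over all genes was taken there, so these counts are not compared with those of the members. In the members the output genes Dbp and Tef and the period genes Per3 and Per2 had log2 ratios of mutant over WT of 4.03, 2.26, 3.71 and 1.30, and the repressor gene Nr1d1 had 1.74. The activator genes Arntl and Npas2 had -2.43 and -2.18. In the Acan class the values were 3.26 (Dbp), 1.59 (Tef), 2.90 (Per3), 1.29 (Per2), 0.94 (Nr1d1), -2.94 (Arntl) and -2.63 (Npas2). In fibroblasts Dbp, Tef, Per3 and Nr1d1 were also higher (2.71, 1.27, 1.45 and 1.46) and Npas2 and Arntl lower (-1.68 and -0.88), whereas Per2 was -0.06. The hour at which each joint was taken is not given in the sources used here, and its part was not tested.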
